A study of Homo sapiens with 12 samples.

Results

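DNA replication and S-phase genes were examined in A375, an established human melanoma cell line, with and without the kinase gene MAPKAPK2 and with and without the BET bromodomain inhibitor JQ1. The set was a fixed list of 41 symbols: 4 E2F transcription factors and 37 genes of origin licensing, helicase activation, DNA synthesis, nucleotide supply and replication-coupled chromatin assembly. All 41 were among the 56609 symbols counted, and all 41 were among the 21698 genes that passed the filter on low counts. The rule names genes by their role and uses no measured value, but the list was chosen with earlier results of these data known.

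In a dividing cell, origins of replication are licensed in G1, when the origin recognition complex (ORC), CDC6 and CDT1 load the MCM2 to MCM7 helicase ring onto DNA. At the start of S phase, CDC45, the GINS complex and MCM10 turn the loaded ring into an active helicase, and polymerases alpha, delta and epsilon copy the strands with the sliding clamp PCNA. Release of E2F factors from the retinoblastoma protein switches on most of these genes together, with E2F1 and E2F2 acting as activators and E2F7 and E2F8 as repressors that close the wave. JQ1 displaces BET bromodomain proteins from acetylated chromatin.

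There were 4 groups of 3 libraries each: unedited (wild-type) cells with DMSO, unedited cells with 500 nM JQ1, cells edited with CRISPR/Cas9 to knock out MAPKAPK2 (which encodes the stress-activated kinase MK2) with DMSO, and the edited cells with 500 nM JQ1. Treatment lasted 48 h, and the titles call the DMSO samples untreated. Whether the knockout cells came from a single clone, and whether replicates were separate cultures, is not given in the sources used here, so p-values measure the spread between these samples. Expression is given in CPM, read counts scaled to a common library size, and single libraries are named by genotype (WT or KO), treatment and replicate number, such as WT DMSO 1.

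Library depth ran from 25316565 to 34594025 estimated counts. MAPKAPK2 itself lay between 87.9 and 119.7 CPM in the 6 wild-type libraries and between 11.1 and 15.7 CPM in the 6 knockout libraries. SOX10, the melanocyte lineage factor that melanoma keeps, was at 437 ± 7.38 CPM in wild-type DMSO (SD, n = 3), whereas the pigment genes MLANA (0.780 ± 0.207 CPM), TYR (0.0809 ± 0.00940 CPM) and DCT (0.233 ± 0.0777 CPM) were near 0. All listed melanocyte lineage markers together summed to 542 to 565 CPM in wild-type DMSO, so listed markers not named here also contributed. The 12 markers of other cell types summed to 30.2 to 32.02 CPM in wild-type DMSO and 21.0 to 22.0 in wild-type JQ1. In the knockout they summed to 21.3 to 28.1 in DMSO and 13.0 to 14.9 with JQ1. EPCAM, CDH1, KRT5 and CD3E were at or near 0 in every group, so the other markers of that list made up nearly all of the sum. The part of these markers in the results was not tested. KO JQ1 3 stood apart: its chi-square per degree of freedom against the other replicates was 26.1 and 27.5, while all other replicate pairs lay between 3.35 and 7.64. The share of counts held by the RNAs RN7SK, RN7SL1, RN7SL2 and RMRP was 9.42% to 9.76% in wild-type DMSO and higher in every library of the other groups: 10.6% to 11.7% in wild-type JQ1, 10.5% to 11.6% in knockout DMSO and 11.03% to 14.6% in knockout JQ1, with KO JQ1 3 the highest. The part of this share in the results was not tested.

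The regulatory sequence that ties many of these genes together is the E2F site, shown here because members with such a site moved in opposite directions. RefSeq promoter windows on GRCh38.p14, from 250 bases before to 50 bases after the gene's start, were found for 37 members. E2F8, MCM4, MCM5 and GINS4 had no entry. The windows were searched on both strands for the 8-base forms TTTCGCGC, TTTCCCGC, TTTGGCGC and TTTGCCGC. A match was found in 21 of the 37 windows (56.8%), against 1164 of all 35116 windows (3.31%). The members had been listed as E2F-driven, so this share describes the list and supports nothing further. The CCAAT box, bound by NF-Y, was in 22 of 37 windows (59.5%) against 34.6% of all, and the E-box CACGTG was in 4 (10.8%) against 7.26%. TTTGAA, the core of the cell cycle homology region, was in 1 (2.7%) against 15.2%. The stretches below lie before the start, 5′ to 3′ on the gene's strand, with E2F matches on either strand in capitals.
E2F1, chr20:33686386-33686465, minus strand: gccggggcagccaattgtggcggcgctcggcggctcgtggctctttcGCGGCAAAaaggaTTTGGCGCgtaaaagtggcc
PCNA, chr20:5126623-5126702, minus strand: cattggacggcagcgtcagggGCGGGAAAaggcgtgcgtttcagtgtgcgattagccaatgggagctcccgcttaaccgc
TYMS, chr18:657573-657652, plus strand: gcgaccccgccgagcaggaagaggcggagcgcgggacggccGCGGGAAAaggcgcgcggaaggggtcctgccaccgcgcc
E2F2, chr1:23531234-23531313, minus strand: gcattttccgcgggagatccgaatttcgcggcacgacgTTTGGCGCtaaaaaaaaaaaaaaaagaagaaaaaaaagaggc
RFC3, chr13:33818069-33818148, plus strand: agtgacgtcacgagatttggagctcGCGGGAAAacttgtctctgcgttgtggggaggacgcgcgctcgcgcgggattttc
MCM6, chr2:135876517-135876600, minus strand: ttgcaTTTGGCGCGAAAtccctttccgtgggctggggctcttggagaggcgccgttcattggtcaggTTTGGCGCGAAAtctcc
In this order, E2F1, PCNA and TYMS rose with JQ1 in both genotypes, E2F2 and RFC3 fell in both, and MCM6 passed the test in neither. E2F1 and E2F2 carry the same TTTGGCGC form in the same orientation. PCNA, TYMS and RFC3 carry TTTCCCGC on the opposite strand. MCM6 has 4 matches in 2 overlapping pairs, each of TTTGGCGC with TTTCGCGC on the opposite strand. Among members with a window, a match was present in 5 of 11 that rose with JQ1 in both genotypes, in 4 of 6 that fell in both and in 8 of 14 that were called in neither.

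Levels were first set against each other in wild-type cells with DMSO, per kilobase of the median length of the gene's protein-coding transcripts in GENCODE release 29. On that scale MCM4 was highest, at 89.7 ± 1.76 CPM per kb (SD, n = 3), followed by PCNA (75.8 ± 1.01), TYMS, thymidylate synthase (71.5 ± 2.31), and TK1, thymidine kinase (65.2 ± 1.24). TK1 and MCM7 (63.6 ± 1.89) differed by less than the SD of MCM7. The ring subunits ran from MCM4 through MCM7, MCM3 (46.6 ± 1.57) and MCM2 (41.5 ± 0.632) to MCM6 (22.3 ± 0.517) and MCM5 (21.5 ± 1.18), the last 2 differing by less than their spread. The lowest 2 members were E2F8 (2.82 ± 0.0518) and E2F2 (2.26 ± 0.0777 CPM per kb). Transcript choice was not measured, so the lengths are approximate.

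JQ1 in wild-type cells split the set. With JQ1, 11 members rose and 10 fell, by changes of at most about 2-fold, and 20 did not pass. The thymidine enzymes TK1 and TYMS, the clamp PCNA, the checkpoint mediator CLSPN and the loading factor CDC6 were among those that rose, and E2F2, E2F8, POLE2, PRIM1 and MCM5 among those that fell. Tests were edgeR's quasi-likelihood F test, adjusted over all tested genes (Benjamini-Hochberg). An adjusted p of 0.05 was passed by 33.1% of all tested genes (16.9% higher and 16.2% lower) and by 51.2% of the members. Among the 10430 genes at least as abundant as the lowest member (7.01 CPM), 46.7% passed (29.1% higher and 17.5% lower). The share of members that passed was therefore near that of genes of their abundance. The median log2 fold change was 0.03 over the members and -0.03 over all tested genes. With library totals as the only scaling, which lowered the median of all tested genes to -0.16, 8 members were higher and 16 lower. In bulk RNA, a change in the share of cells in S phase and a change in RNA per cell cannot be told apart.

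All 4 E2F factors of the list changed, and the listed activators moved in opposite directions, as did the listed repressors. The role groups, here and below, hold 2 to 11 members. Of genes at least as abundant as the lowest member, 46.7% passed, and whether any role group differs from that share was not tested. E2F1, an activator, was at 34.8, 35.6 and 37.0 CPM in the wild-type DMSO libraries and at 46.0, 46.6 and 43.5 CPM with JQ1 (log2 fold change 0.34, SE 0.10, adjusted p 0.0132). E2F2, also an activator, went from 11.8, 11.3 and 12.04 to 5.94, 6.38 and 5.15 CPM (-1.01, SE 0.13, adjusted p 2.46e-05). The groups did not overlap for either gene, and E2F2 was the only member of the 41 with an absolute log2 change of 1 or more. That depends on the libraries used. With each library left out in turn, E2F2 ran from -1.08 to -0.93, and POLE2 reached -1.02 without WT DMSO 2. The repressor E2F7 rose from 39.8, 39.4 and 35.9 to 50.5, 50.8 and 47.9 CPM (0.38, SE 0.06, adjusted p 0.000367). Its partner E2F8 fell from 9.72, 9.49 and 9.84 to 7.04, 6.64 and 7.16 CPM (-0.48, SE 0.09, adjusted p 0.00107). All 3 JQ1 libraries lay on one side of all 3 DMSO libraries for both repressors. The E2F1 call was lost with library totals only (adjusted p 0.0754).

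Of the 10 licensing genes, CDC6 and ORC6 rose, MCM2 and MCM5 fell, and 6 did not pass. CDC6, which recruits the helicase to ORC, was at 58.4, 55.7 and 60.8 CPM in DMSO and at 73.1, 72.5 and 72.2 CPM with JQ1 (0.32, SE 0.06, adjusted p 0.000953). MCM2 went from 148, 151 and 152 to 132, 129 and 118 CPM (-0.25, SE 0.07, adjusted p 0.00978). The groups were separate for both genes. MCM5, another ring subunit, fell by 0.35 in log2 units (adjusted p 0.000708), whereas MCM3, MCM4, MCM6 and MCM7 had log2 fold changes from -0.08 to 0.03. CDT1, the partner of CDC6 in loading, was at -0.22 (adjusted p 0.15), and its groups overlapped.

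Of the 6 genes of helicase activation, GINS1 fell and the other 5 did not pass (16.7% called, against 46.7% of genes at least as abundant as the lowest member). MCM10, which helps to fire the helicase, was at 48.2, 51.4 and 50.7 CPM in DMSO and 47.4, 47.4 and 45.2 CPM with JQ1 (-0.10, 95% interval -0.23 to 0.02). GINS1, a subunit of the GINS complex, went from 40.9, 42.6 and 40.8 to 36.8, 36.8 and 34.9 CPM (-0.19, SE 0.06, adjusted p 0.0194). For GINS1 and MCM10 every JQ1 library was below every DMSO library, by small margins.

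Among the 11 polymerase, clamp and loader genes, PCNA, RFC5 and POLD1 rose and RFC3, POLA1, PRIM1 and POLE2 fell. PCNA was at 101, 104 and 103 CPM in DMSO and at 142, 134 and 144 CPM with JQ1 (0.45, SE 0.05, adjusted p 1.68e-05). The falls included both catalytic parts of the primer-making polymerase alpha-primase complex, POLA1 (-0.22, adjusted p 0.0146) and PRIM1 (-0.43, SE 0.07, adjusted p 0.000341), while its accessory subunit POLA2 was at 0.26 (adjusted p 0.12). The subunits of polymerase epsilon also differed, with POLE2, the second subunit, at -0.92 (SE 0.14, adjusted p 0.000123) and the catalytic POLE at 0.16 (adjusted p 0.125). The clamp loader subunits divided as well: RFC3 fell (-0.37, adjusted p 0.00175) and RFC5 rose (0.29, adjusted p 0.00531). The RFC5 and POLD1 calls were lost with library totals only (0.120 and 0.0848).

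All 4 genes of nucleotide supply passed, as did 46.7% of genes at least as abundant as the lowest member. TK1, the salvage kinase for thymidine, was at 75.7, 73.8 and 76.6 CPM in DMSO and at 118, 120 and 109.7 CPM with JQ1 (0.62, SE 0.06, adjusted p 2.46e-06), which was the smallest adjusted p of the 41. TYMS, which makes thymidylate, rose from 95.3, 91.6 and 97.7 to 120.4, 115 and 117 CPM (0.31, SE 0.06, adjusted p 0.000743). The S-phase subunit of ribonucleotide reductase, RRM2, rose from 108, 117 and 116 to 138, 137 and 141 CPM (0.28, SE 0.05, adjusted p 0.000626). These groups did not overlap for any of the 3 genes. The larger reductase subunit RRM1 fell (-0.23, SE 0.06, adjusted p 0.00656), so that the 2 subunits of the enzyme moved in opposite directions.

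Of the chromatin and checkpoint genes, CLSPN alone passed (0.54, SE 0.07, adjusted p 3.75e-05). UHRF1, which brings the maintenance DNA methyltransferase to new strands, was at 142, 151 and 144 CPM in DMSO and 166, 157 and 146 CPM with JQ1, and its groups overlapped (0.10, adjusted p 0.278). The lagging-strand genes FEN1 (0.10) and LIG1 (0.26) did not pass (adjusted p 0.167 and 0.183). With single libraries left out, calls of 4 members in wild type were lost. GINS1 was lost without WT DMSO 1 (adjusted p 0.05003), WT DMSO 2 (0.0864) or WT JQ1 3 (0.0793), and MCM2 without WT JQ1 3 (0.0539). POLA1 was lost without WT DMSO 1 (0.0740) or WT JQ1 1 (0.0688), and POLD1 without WT DMSO 2 (0.0608), WT JQ1 1 (0.0918) or WT JQ1 2 (0.0516). The number called with a library left out ran from 19 to 24.

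**Figure D1:**
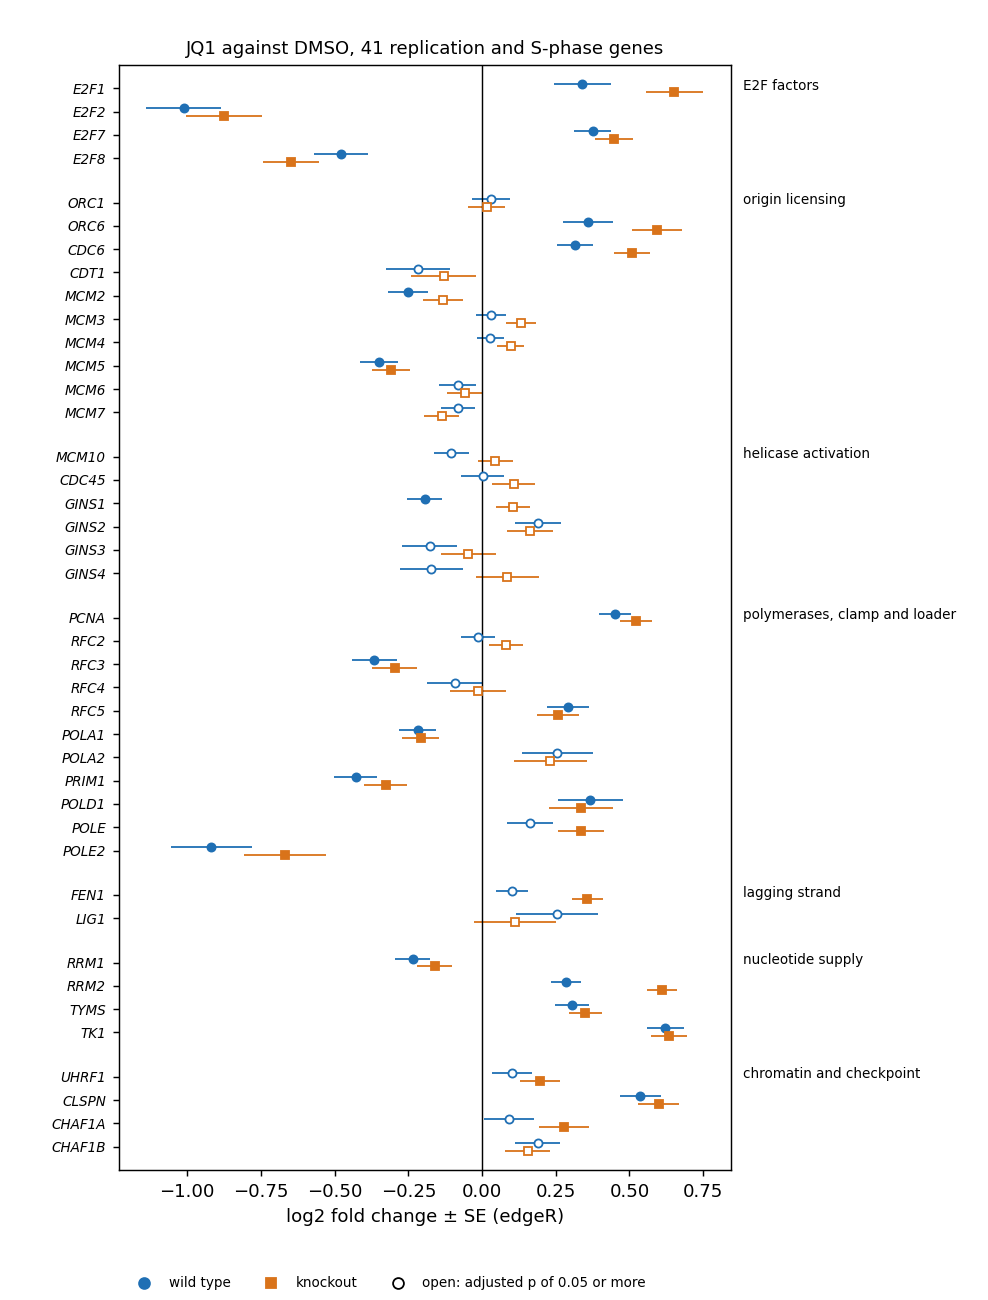
Log2 fold change of each of the 41 genes with JQ1 against DMSO (x axis, ± SE from edgeR), in wild type (blue circles) and knockout (orange squares), ordered by role; open symbols did not pass an adjusted p of 0.05. E2F2 (-1.01 and -0.87) and POLE2 (-0.92 and -0.67) lie farthest to the left, and TK1 (0.62 and 0.63) is among the farthest to the right in both genotypes.

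In knockout cells JQ1 also moved members both ways. Here 15 members rose, 8 fell and 18 did not pass, with a median log2 fold change of 0.11 over the members and near 0 (-0.004) over all tested genes. The same test called 34.4% of all tested genes (16.7% higher and 17.8% lower) and 49.7% of those at least as abundant as the lowest member (28.3% higher and 21.4% lower), against 56.1% of the members. With library totals only, 11 members were higher and 10 lower, and the members' median was -0.0095. The 2 JQ1 comparisons share no library. They had 19 members called in common, 11 higher and 8 lower in both, which is 90.5% of the 21 called in wild type and 82.6% of the 23 called in knockout. Over all tested genes, 76% of the calls in wild type and 73.1% of those in knockout were shared in the same direction, and among genes at least as abundant as the lowest member 82% and 77%. Shared calls made up 46.3% of the members and 38.3% of those abundant genes, and whether these shares differ was not tested. No member was called in opposite directions, and 12 of all tested genes were.

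The rises in both genotypes were E2F1, E2F7, ORC6, CDC6, PCNA, RFC5, POLD1, RRM2, TYMS, TK1 and CLSPN. In the knockout, E2F1 went from 27.9, 28.1 and 29.4 CPM in DMSO to 41.4, 38.8 and 53.7 CPM with JQ1 (0.65, SE 0.10, adjusted p 0.000104), with replicate 3 well above the other JQ1 libraries. RRM2 went from 98.1, 98.8 and 99.3 to 145, 149.7 and 157 CPM (0.61, SE 0.05, adjusted p 5.09e-07), and TK1 from 86.0, 83.0 and 85.6 to 128, 124 and 143 CPM (0.63, SE 0.06, adjusted p 1.79e-06). Both enzymes were raised in every JQ1 library above every DMSO library. PCNA rose from 102, 100.4 and 107 to 156, 147 and 142 CPM (0.52, SE 0.05, adjusted p 3.42e-06). CDC6 rose from 59.8, 53.6 and 60.3 to 85.4, 81.0 and 80.8 CPM (0.51, SE 0.06, adjusted p 1.28e-05). Neither gene's groups overlapped. TYMS rose from 107, 105 and 108 to 135, 127 and 145 CPM and E2F7 from 32.4, 30.8 and 33.6 to 43.3, 45.7 and 43.0 CPM (adjusted p 0.000205 and 7.8e-05), again without overlap. ORC6, the smallest ORC subunit, and CLSPN rose by 0.59 (SE 0.08, adjusted p 6.21e-05) and 0.60 (SE 0.07, adjusted p 1.19e-05).

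The falls in both genotypes were E2F2, E2F8, MCM5, RFC3, POLA1, PRIM1, POLE2 and RRM1. In the knockout, E2F2 went from 9.55, 10.5 and 11.3 to 4.76, 5.52 and 6.74 CPM (-0.87, SE 0.13, adjusted p 9.15e-05), and E2F8 from 10.0, 9.13 and 10.2 to 5.90, 6.13 and 6.68 CPM (-0.65, SE 0.09, adjusted p 8.62e-05). The opposite directions of E2F1 and E2F2, and of E2F7 and E2F8, were thus present in both genotypes. POLE2 fell by 0.67 (SE 0.14, adjusted p 0.00158), PRIM1 by 0.33 (adjusted p 0.00292), MCM5 by 0.31 (adjusted p 0.00178) and RFC3 by 0.30 in log2 units (adjusted p 0.00736).

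POLE, FEN1, UHRF1 and CHAF1A, a chromatin assembly subunit, passed in the knockout and not in wild type, and MCM2 and GINS1 passed in wild type and not in the knockout. FEN1, the flap endonuclease of Okazaki fragments, was at 114, 106 and 116 CPM in knockout DMSO and 140.2, 140.3 and 149 CPM with JQ1 (0.36, SE 0.05, adjusted p 0.000106). In wild type it was at 121, 114 and 122 and 129, 127 and 127 CPM. UHRF1 was at 142, 152 and 153 CPM and 161, 164 and 189 CPM in the knockout, with JQ1 replicate 3 the highest of all 12 libraries. MCM2 was at 152, 161 and 169 and 135, 146 and 158 CPM and overlapped (-0.13, adjusted p 0.146). MCM10 overlapped too, at 47.0, 48.1 and 50.2 and 51.4, 51.0 and 47.4 CPM (0.04, adjusted p 0.614).

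Several of the smaller knockout calls were lost with single libraries left out or under other settings. Without KO JQ1 3, 12 members rose and 8 fell with JQ1 in the knockout (median 0.09), and 19 of the 23 calls were kept. In that fit POLD1 was at 0.19 in place of 0.34 (adjusted p 0.112), UHRF1 at 0.12 in place of 0.20 (0.122), CHAF1A at 0.14 in place of 0.28 (0.0539) and RRM1 at -0.10 in place of -0.16 (0.138). CHAF1A was also lost without KO DMSO 1 (0.0593) or KO DMSO 2 (0.0678), RFC5 without the same 2 libraries (0.0621 and 0.0527), and POLD1 and POLA1 without KO DMSO 1 (0.107 and 0.0955). UHRF1 was lost without KO DMSO 1 (0.124), KO DMSO 2 (0.0659) or WT JQ1 2 (0.0507). RRM1, at an adjusted p of 0.0485 with all libraries, was lost without each of the 12 libraries in turn except KO JQ1 1 (0.0593 to 0.166). With library totals only, POLD1 (0.114), RFC5 (0.181), UHRF1 (0.372) and CHAF1A (0.137) were lost there. With only the 6 knockout libraries fitted, CHAF1A (0.0864), POLA1 (0.0858), POLD1 (0.0614), RFC5 (0.0697), RRM1 (0.145) and UHRF1 (0.111) were lost. RRM1 and UHRF1 were also lost with the authors' normalization factors (0.0794 and 0.0660).

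**Figure D2:**
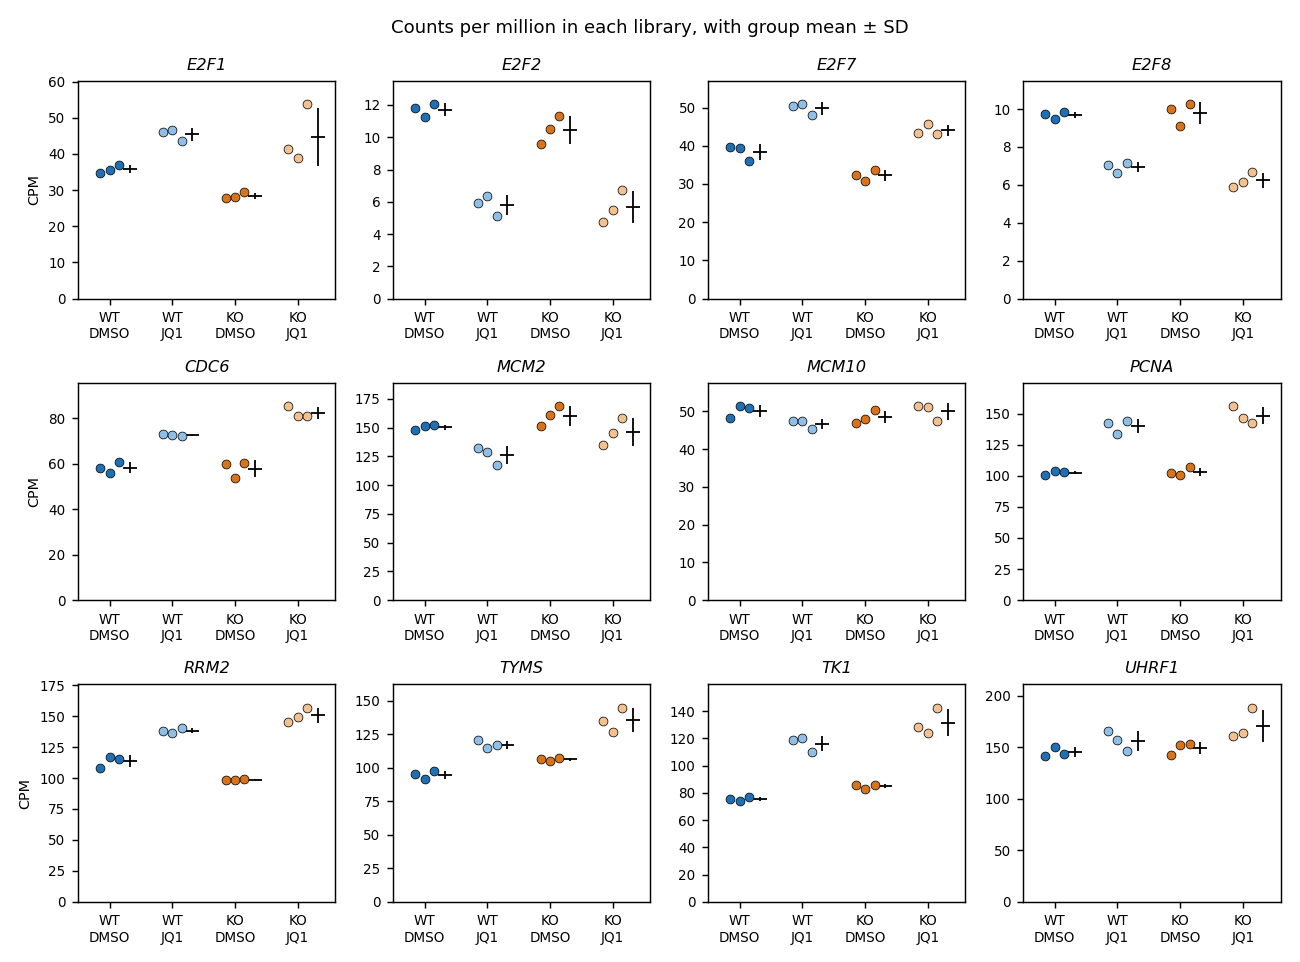
CPM (y axis, from 0) of 12 of the genes in each library of the 4 groups (WT, wild type; KO, knockout), with the group mean ± SD as a black cross. E2F1 and E2F7 are higher and E2F2 and E2F8 lower in every JQ1 library than in every DMSO library of the same genotype.

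Whether the drug response differed with the genotype was tested as the interaction of genotype and drug. None of the 41 members passed with edgeR's quasi-likelihood test, and 5 had an unadjusted p under 0.05, while DESeq2 called 1, RRM2. Of all tested genes 0.134% passed with edgeR (0.0323% more positive and 0.101% more negative in the knockout), and of those at least as abundant as the lowest member 0.211% (0.0384% and 0.173%). The fitted response was more positive in the knockout for 32 of the 41, with a median difference of 0.08 on the log2 scale, against 48.9% of all tested genes (median -0.01) and 42.3% of those at least as abundant as the lowest member (median -0.03). No test was made of this count, since members of 1 library are not independent. RRM2 had the smallest adjusted p: its response was larger by 0.33 in the knockout (SE 0.07, unadjusted p 0.000515, edgeR adjusted p 0.147, DESeq2 adjusted p 0.00267). The RRM2 values were the lowest in knockout DMSO and the highest in knockout JQ1, with no overlap among the 4 groups. GINS1 followed, with a difference of 0.30 (95% interval 0.12 to 0.48, edgeR adjusted p 0.266). It fell with JQ1 in wild type and was at 37.3, 36.9 and 36.1 CPM in knockout DMSO and 40.7, 37.6 and 40.3 CPM in knockout JQ1. FEN1 was the third, at 0.26 (95% interval 0.09 to 0.42, edgeR adjusted p 0.309). For TK1 the interval of the difference ran from -0.17 to 0.20, and for MCM6 from -0.16 to 0.21. Differences between genotypes of sizes inside these intervals were not resolved with 3 libraries a group. Larger fitted differences, up to 0.33 for RRM2, also did not pass edgeR's test, so the intervals do not mark a limit of detection.

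**Figure D3:**
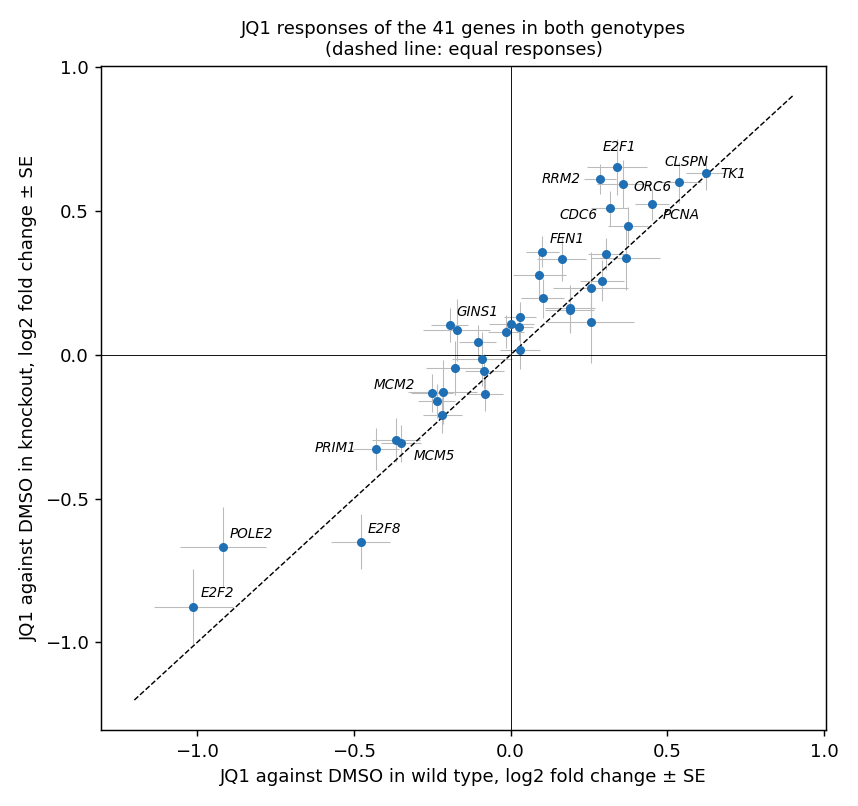
Log2 fold change with JQ1 in wild type (x axis) against that in knockout (y axis) for the 41 genes, each with its SE. The dashed line marks equal responses. The comparisons share no library but share the estimate of spread per gene. Of the 41 points 32 lie above the line, and E2F2, POLE2 and E2F8 lie apart at the lower left.

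The knockout was then compared with wild type within each treatment. In DMSO, 4 of the 41 members passed edgeR's test: MCM4, E2F7 and RRM2 were lower and RFC2 was higher in the knockout. Under JQ1, MCM4 was lower and ORC6, RFC2 and TYMS were higher. Of all tested genes, 7.92% passed in DMSO (3.47% higher and 4.44% lower) and 8.57% under JQ1 (3.01% higher and 5.56% lower). Of those at least as abundant as the lowest member, 10.4% passed in DMSO (5.77% higher and 4.67% lower) and 11.5% under JQ1 (4.82% higher and 6.7% lower). The 9.76% of members called in each comparison lay near these shares. The medians over the members were 0.01 in DMSO and 0.10 under JQ1, and near 0 over all tested genes. None of the 41 lies on chromosome 1 distal to MAPKAPK2. The knockout comparisons and the JQ1 comparisons share libraries, so their values are given side by side without a measure of likeness.

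MCM4, a subunit of the helicase ring, was the member that differed most. It was at 289, 282 and 278 CPM in wild-type DMSO and at 189, 178 and 189 CPM in knockout DMSO (-0.61, SE 0.05, adjusted p 9.09e-07). With JQ1 it was at 283, 292 and 290.1 CPM in wild type and at 199, 196 and 199 CPM in the knockout (-0.54, SE 0.05, adjusted p 2.59e-06). All 6 knockout libraries lay far below all 6 wild-type libraries, and with JQ1 MCM4 did not pass in either genotype (0.03 and 0.10, adjusted p 0.694 and 0.12). The other 5 ring subunits did not pass in either knockout comparison, with log2 fold changes of MCM2, MCM3, MCM5, MCM6 and MCM7 from -0.01 to 0.21. With each of the 12 libraries left out in turn, the MCM4 difference stayed between -0.62 and -0.57 in DMSO and between -0.56 and -0.53 under JQ1.

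MCM4 lies on chromosome 8 (47960185 to 47978160, plus strand, GENCODE release 29 on GRCh38) and starts head to head with PRKDC, the gene of the DNA repair kinase DNA-PKcs (47773108 to 47960183, minus strand), with 1 base between the annotated genes. These neighbours were looked at after the MCM4 values were seen. PRKDC was at 1898, 1851 and 1854 CPM in wild-type DMSO and at 1236, 1138 and 1209 CPM in knockout DMSO (-0.65, SE 0.05, adjusted p 7.69e-07). With JQ1 it was at 1449, 1486 and 1460 and 833, 843 and 772 CPM (-0.84, SE 0.05, adjusted p 3.68e-08). PRKDC was therefore lower in the knockout by an amount close to that of MCM4 in DMSO. Unlike MCM4 it also fell with JQ1, by 0.35 in wild type (adjusted p 4.8e-05) and 0.55 in knockout (adjusted p 5.88e-07). Of the 10 nearest tested protein-coding genes, 5 on each side, only PRKDC passed in either knockout comparison. By start coordinate, these 10 genes reached from -4867 kb (POMK) to 4662 kb (RB1CC1) of MCM4, so the set is not confined to its surroundings. The next genes, CEBPD (-223 kb) and UBE2V2 (48 kb), were at 0.36 (adjusted p 0.146) and 0.003 (0.994) in DMSO. Of those that did not pass, HGSNAT (-4820 kb) came closest, at -0.28 under JQ1 (adjusted p 0.0516). Whether the counting used the strand is not given in the sources used here.

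**Figure D4:**
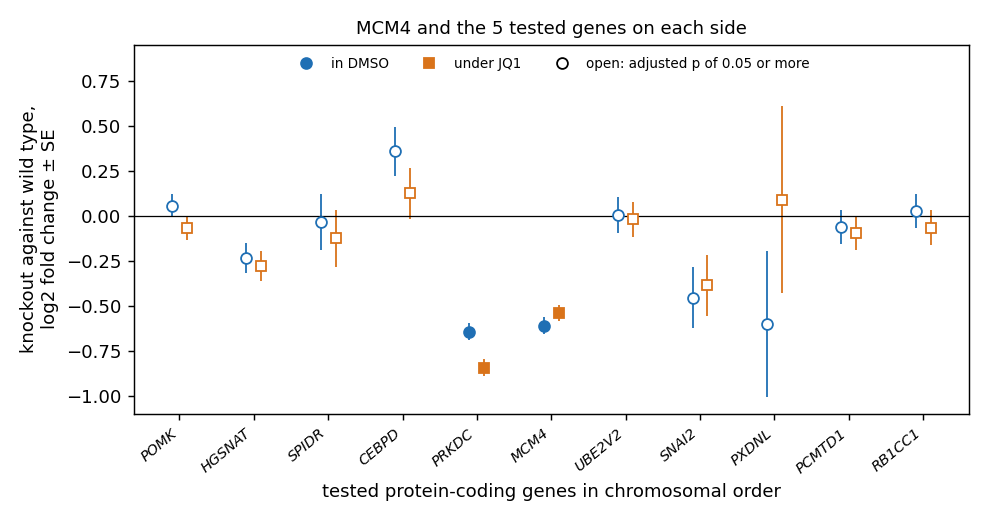
Log2 fold change of knockout against wild type (y axis, ± SE) for MCM4 and the 5 tested protein-coding genes on each side in chromosomal order (x axis), in DMSO (blue circles) and under JQ1 (orange squares); open symbols did not pass an adjusted p of 0.05. PRKDC (-0.65 and -0.84) and MCM4 (-0.61 and -0.54) are the only filled symbols. The x axis shows order and not distance, and the starts lie from -4867 kb to 4662 kb of that of MCM4.

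The other knockout differences were smaller. RRM2 was at 108, 117 and 116 CPM in wild-type DMSO and at 98.1, 98.8 and 99.3 CPM in knockout DMSO (-0.20, SE 0.05, adjusted p 0.0249), while with JQ1 the knockout was the higher (0.12, adjusted p 0.183). E2F7 was lower in knockout DMSO, with values of 32.4, 30.8 and 33.6 against 39.8, 39.4 and 35.9 CPM (-0.25, SE 0.06, adjusted p 0.0265). E2F1 did not quite pass in DMSO (-0.33, adjusted p 0.0508), although its groups did not overlap. RFC2, a clamp loader subunit, was at 37.0, 36.2 and 38.6 CPM in wild-type DMSO and 42.3, 43.3 and 43.3 CPM in knockout DMSO (0.20, SE 0.06, adjusted p 0.0433). With JQ1 it was at 36.6, 38.3 and 35.9 and 45.5, 44.0 and 46.7 CPM (0.30, SE 0.06, adjusted p 0.0043). The knockout libraries were above the wild-type libraries in both treatments. ORC6 was at 15.7, 17.4 and 18.8 CPM in wild-type DMSO, 19.9, 18.8 and 22.1 CPM in knockout DMSO, 21.9, 22.7 and 21.9 CPM in wild-type JQ1 and 32.2, 30.4 and 29.3 CPM in knockout JQ1. Its difference passed under JQ1 (0.47, SE 0.08, adjusted p 0.0022) and not in DMSO (0.23, adjusted p 0.127). TYMS passed under JQ1 (0.21, SE 0.06, adjusted p 0.031), with a similar value in DMSO (0.17, adjusted p 0.1).

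Apart from MCM4, ORC6 and the RFC2 difference under JQ1, these calls were lost with single libraries left out, while the fitted differences moved less. With each library left out in turn, the difference in DMSO ran from 0.19 to 0.24 for RFC2, from -0.23 to -0.17 for RRM2 and from -0.29 to -0.20 for E2F7, and that of TYMS under JQ1 from 0.16 to 0.26. Without KO JQ1 3, 5 members were called under JQ1, 4 higher and 1 lower. In DMSO the number of members called was 1 without KO DMSO 1 or WT DMSO 2, and 2 without KO DMSO 2, KO DMSO 3, WT DMSO 1 or WT DMSO 3. It rose to 10 without KO JQ1 3, a library outside that comparison that enters the shared estimate of the spread. E2F7 was lost without WT DMSO 1 (0.159), WT DMSO 2 (0.150) or each knockout DMSO library (0.0530 to 0.155), and RRM2 without WT DMSO 2 (0.154), WT DMSO 3 (0.128) or each knockout DMSO library (0.0843 to 0.103). RFC2 in DMSO was lost without each library in turn except KO JQ1 2 and KO JQ1 3 (0.05 to 0.157). TYMS under JQ1 was lost without KO JQ1 1 (0.0642), KO JQ1 3 (0.0508) or each wild-type JQ1 library (0.0640 to 0.125). RFC2 under JQ1 was lost when only the 6 JQ1 libraries were fitted (0.0523), as was TYMS (0.143). With library totals only, RFC2 in DMSO (0.113) and TYMS under JQ1 (0.0501) were lost, and with the authors' normalization factors E2F7 in DMSO (0.0530).

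**Figure D5:**
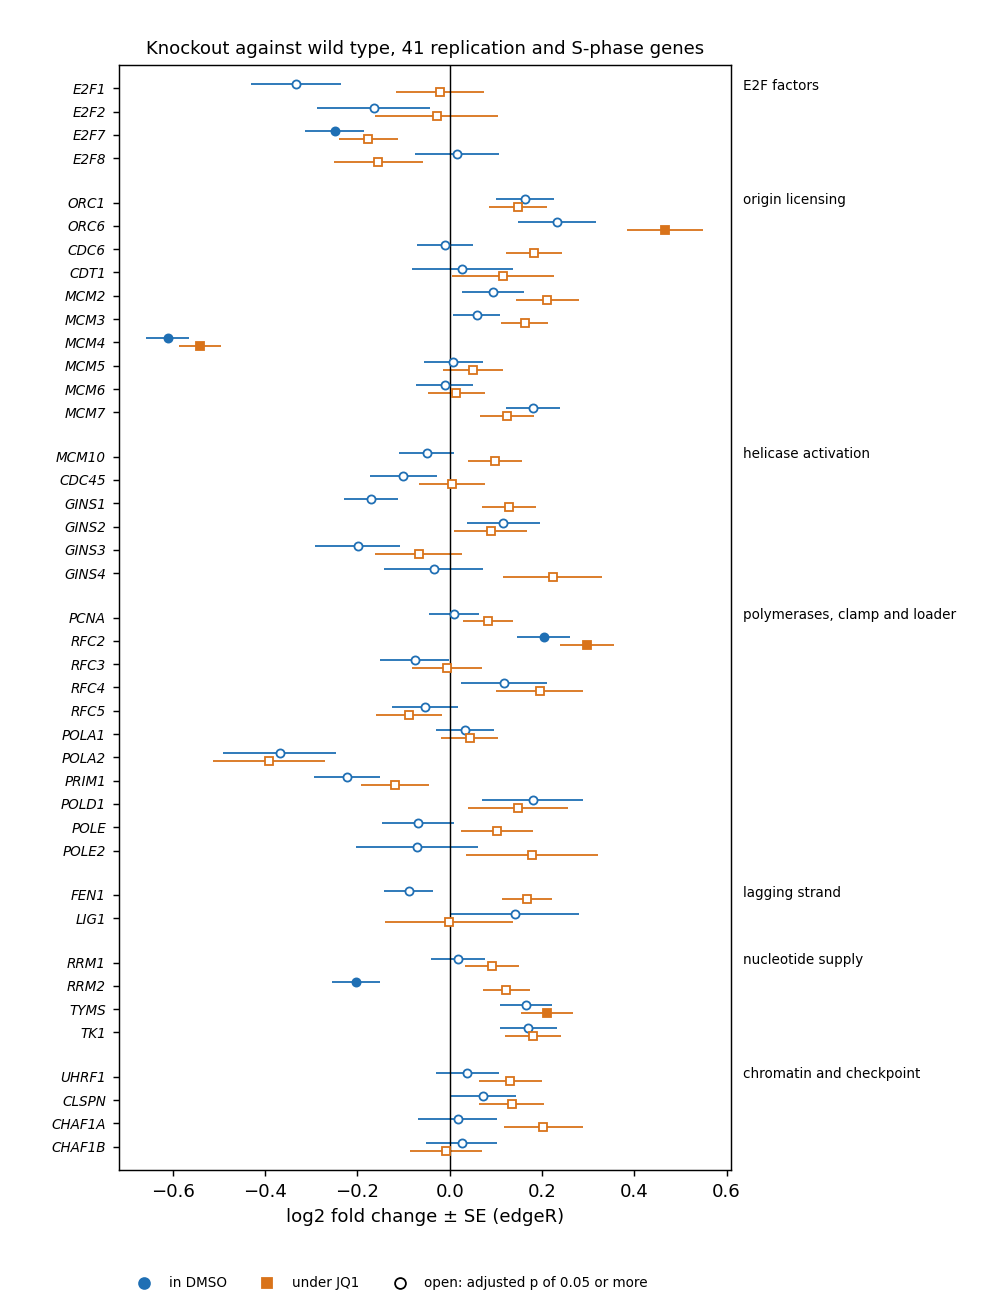
Log2 fold change of each of the 41 genes in knockout against wild type (x axis, ± SE from edgeR), in DMSO (blue circles) and under JQ1 (orange squares), ordered by role; open symbols did not pass an adjusted p of 0.05. MCM4 lies alone at the left in both treatments (-0.61 and -0.54), and ORC6 under JQ1 (0.47) lies farthest to the right.

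A wider list of 60 other replication genes, such as the remaining ORC subunits, RPA, cyclins E and A and the origin kinases, was read out in the same fits. All 60 were tested. With JQ1, 16 rose and 9 fell in wild type (41.7% called), and 19 rose and 14 fell in the knockout (55.0%). Of all tested genes 33.1% and 34.4% were called, and of those at least as abundant as the lowest member 46.7% and 49.7%. SAMHD1, which breaks down deoxynucleotides, rose from 25.4 ± 1.44 to 44.7 ± 0.0810 CPM in wild type (SD, n = 3; edgeR log2 fold change 0.81, SE 0.06, adjusted p 2.49e-07) and by 0.94 in the knockout (adjusted p 4.9e-08). CDK2, the S-phase kinase, rose by 0.51 and 0.53 (adjusted p 2.17e-06 and 1.26e-06). The fork protection gene TIMELESS rose by 0.44 in wild type (adjusted p 2.62e-05), and the histone chaperone ASF1B by 0.74 in the knockout (adjusted p 4.87e-06). Between genotypes, 3 of the 60 passed in DMSO (DTL lower, RRM2B and E2F5 higher) and 5 under JQ1 (4 higher and 1 lower). These were 5% and 8.33% of the list, against 7.92% and 8.57% of all tested genes. DTL, a ubiquitin ligase subunit that targets CDT1, was at 111 ± 6.24 CPM in wild-type DMSO and 82.5 ± 6.16 CPM in knockout DMSO (-0.43, adjusted p 0.00272), and it lies on chromosome 1 distal to MAPKAPK2. Under JQ1 the smallest adjusted p values were those of the histone chaperone NASP (0.34, adjusted p 0.0019), the phosphatase CDC25A (0.25, adjusted p 0.0162) and the polymerase epsilon subunit POLE3 (0.22, adjusted p 0.0284). No gene of this list passed in the interaction with edgeR, where 6 had an unadjusted p under 0.05.

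For comparison, 25 genes of G2 and mitosis were read out. With JQ1, 1 rose and 8 fell in wild type and 2 rose and 7 fell in the knockout, with medians of -0.15 and -0.14, where the members' medians were 0.03 and 0.11. The share called was 36% in each genotype, against 33.1% and 34.4% of all tested genes, whose medians were -0.03 and -0.004. Of genes at least as abundant as the lowest member, 46.7% and 49.7% were called. Whether the G2 and mitosis genes differ from the members was not tested. BUB1B, a spindle checkpoint kinase, fell by 0.39 in wild type and 0.43 in knockout (adjusted p 0.00056 and 0.00021), and the kinesin KIF20A by 0.32 and 0.42 (adjusted p 0.000586 and 5.51e-05). CDC20, the activator of the anaphase-promoting complex, rose by 0.38 in wild type (adjusted p 0.00126). Between genotypes the medians were -0.14 in DMSO and -0.12 under JQ1, with 1 and 4 genes lower. These were 4% and 16% of the list, against 7.92% and 8.57% of all tested genes. CENPF, a kinetochore gene that also lies distal to MAPKAPK2 on chromosome 1, was lower in both (-0.57 and -0.65, adjusted p 0.000244 and 6.94e-05), and MKI67, the proliferation marker, was lower under JQ1 (-0.25, adjusted p 0.024).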

How the data were processed

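RNA was measured in 12 samples, 3 in each of 4 groups. Ribosomal RNA was depleted and directional libraries were made, per the labels' protocols. Trim Galore, cutadapt, FastQC, MultiQC, kallisto and DESeq2 and the build GRCh38.p10 are named in the submitters' processing notes, without roles. The authors deposited estimated counts per gene symbol, and a table of normalized signal for 32828 genes that equals the deposited count divided by a factor per gene and library, used only in an alternative.

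Here the deposited estimates were first rounded to whole numbers, since the planned test needs counts. Genes were filtered with filterByExpr (21698 kept, with at least 99.9% of each library's counts), scaled with TMM (factors 0.926 to 1.06) and fitted in 1 model over all 12 libraries with a term per group, using edgeR 4.0.16 and its quasi-likelihood F test under R 4.3.3 with limma 3.58.1. The Benjamini-Hochberg adjustment ran over all tested genes, with a threshold of 0.05. SE is the absolute log2 fold change over the square root of F, with a prior count of 0.125. On simulated counts for wild-type JQ1 against DMSO (21134 genes), 74% of 1.5-fold and 90% of 2-fold changes were recovered (100 genes of each size), with 13 false calls. The changed genes were drawn from those with higher counts, and all other genes were left unchanged, unlike in the data. Changes below 1.5-fold, as most called members had, were not simulated.

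The members and lists were chosen with earlier results of these data known. Values per library are given for E2F1, E2F2, E2F7, E2F8, CDC6, MCM2, MCM10, PCNA, RRM2, TYMS, UHRF1 and the 3 members with the smallest adjusted p in each comparison; statistics for up to 6 members with the largest change in each direction; and, of the related lists, 3 genes with the smallest adjusted p per comparison. PRKDC and other genes outside this rule were named after their values were seen. Marker lists checked the cell line. Alternatives were DESeq2 1.42.0, library totals, the authors' factors, no filter, a mean of at least 1 CPM, only the groups compared, the replicate number as a block, and each library left out. Promoter sequences came from RefSeq (GRCh38.p14), gene positions and lengths from GENCODE release 29, both matched by symbol.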

Additional observations from a re-analysis of the deposited data

How the results depend on the processing

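Under 19 alternatives (7 settings and 12 left-out libraries), none of the members' called changes reversed. Of 1042 single-member values recomputed, 954 kept their side of the threshold, 87 fell short of it and 1 passed it, RRM2 in the interaction with DESeq2. The 1042 cover the called members and the 3 members with the smallest adjusted p in the interaction, where none was called. They include fits without a library outside the comparison, so the 954 do not measure how firm the calls are. The number called was moved by over 1.5 times only in the knockout comparisons and the interaction. In DMSO it was 8 with DESeq2 and 9 when only the groups compared were fitted, against 4, and it ran from 1 to 10 with 1 library left out. Under JQ1 it was 9 with DESeq2, 8 at a mean of at least 1 CPM and 2 with only the groups compared, against 4, and it ran from 3 to 5 with 1 library left out. In the interaction it was 1 with DESeq2 against 0, and 0 in each of the other alternatives run. With library totals only, the members' median moved to -0.10 for JQ1 in wild type, -0.0095 for JQ1 in knockout and -0.037 for the knockout in DMSO. The cause of these shifts was not tested. The fit with only the groups compared has fewer libraries to estimate the spread and was not run for the interaction. Without the low-count filter the calls of GINS1 (JQ1 in wild type), RRM1 and UHRF1 (JQ1 in knockout), E2F7, RFC2 and RRM2 (knockout in DMSO) and TYMS (knockout under JQ1) were lost. Of the 4 members called for the knockout in DMSO, MCM4 alone kept its call there.

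No pairing by replicate number was seen: none of 18 same-number pairs had a correlation of deviations over 0.1 (-0.11 to 0.08). Only 1 of 12 libraries correlated best with its own number. With 3 libraries a group, such correlations cannot show whether libraries of the same number were handled together. With the replicate block the members called were 21 and 21 for JQ1 in wild type and knockout, 3 and 4 for the knockout in DMSO and under JQ1, and 0 for the interaction. The lost calls were RRM1 (0.0729) and UHRF1 (0.0589) with JQ1 in knockout and RFC2 (0.0772) for the knockout in DMSO. The lowest count of any member in a library was 111, which sets the counting precision there.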
